A study of Mus musculus with 63 samples.

Results

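The genes described here encode proteins of the synaptic vesicle and of the active zone, the patch of presynaptic membrane where vesicles fuse. They were chosen by name and not by a measured value: 14 synaptotagmins, 3 synapsins, the SV2 proteins, synaptophysin, synaptoporin and the synaptogyrins, the RIM, Munc13, complexin and ERC genes, Bassoon, Piccolo, rabphilin and the Doc2 genes, in all 41 of the 55291 gene symbols counted. The 41 genes were followed across 63 RNA-seq libraries of mouse entorhino-hippocampal slice cultures, 39 of single hippocampal regions and 24 of a synaptopodin co-immunoprecipitation (Synpo-coIP). Cultures were prepared at postnatal day 3 to 5 from C57BL/6J mice (Synpo+/+) or B6.129-Synpotm1Mndl/Dllr mice (Synpo-/-) of either sex and were kept for at least 18 days in vitro.

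In the entorhinal cortex lesion (ECL), the cortex is cut away from the hippocampus with a scalpel, so that the dentate gyrus (DG) and CA3 lose their perforant path input while fibers within the hippocampus remain. For the regional libraries, a DG or a CA3 was dissected from an individual culture, and lesioned cultures were taken 3 days after ECL. The groups were Synpo+/+ CA3 control (n = 2) and ECL (n = 3), Synpo+/+ DG control (n = 4) and ECL (n = 7), Synpo-/- CA3 control (n = 6) and ECL (n = 6), and Synpo-/- DG control (n = 7) and ECL (n = 4). For the Synpo-coIP, each replicate was a lysate of 6 cultures in cycloheximide. Part of the precleared lysate was sequenced as input and part after capture on protein A beads that carried an antibody to synaptopodin, with 5 Synpo+/+ control, 5 Synpo+/+ ECL and 2 Synpo-/- samples per fraction. The labels do not give the lesion state of the Synpo-/- samples in this experiment. The labels call the replicates biological, and the p-values below measure the spread between these samples. Whether regional libraries of different groups share a culture or an animal is not given in the labels.

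At the active zone, RIM, Bassoon, Piccolo and ERC proteins form a scaffold that holds calcium channels near docked vesicles. Munc13 proteins (Unc13a, Unc13b, Unc13c) open syntaxin and prime vesicles for fusion, complexins clamp and promote the assembled SNARE complex, and synaptotagmins, Doc2 proteins and rabphilin bind calcium and membranes, several of them as sensors of release. Synapsins tether the reserve of vesicles, and SV2, synaptophysin and synaptogyrin proteins sit in the vesicle membrane. In the hippocampus, dentate granule cells send mossy fibers to CA3 pyramidal cells, whose boutons hold many vesicles and facilitate strongly during trains. A transcript counted in a dissected region comes from cell bodies and from dendrites there, whereas its protein can lie in another region at the end of the axon.

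Total counts per library were 14055930 to 46043990 in the regional experiment (median 22354491) and 11601154 to 53682143 in the coIP experiment (median 23265704). Markers of dentate granule cells (8 genes) summed to 403 to 754 CPM (counts scaled to the normalized library size) in DG libraries and to 76.6 to 187 CPM in CA3 libraries, apart from Synpo+/+ DG ECL replicate 5, which had 85.4 CPM. The same library had 653 CPM of 7 CA3 pyramidal cell markers, against 192 to 247 CPM in the other 6 of its group, so that it went against its DG label on both lists. The DG results after ECL in Synpo+/+ cultures include it unless a value is said to be without it. Synpo itself was not lower in libraries labelled Synpo-/-: it was at 40.4 ± 6.18 CPM (SD, n = 6) in Synpo-/- CA3 control against 25.8 ± 0.0603 CPM (n = 2) in Synpo+/+ CA3 control, and at 51.8 ± 9.31 CPM (n = 7) against 22.5 ± 2.36 CPM (n = 4) in DG control. Whether these reads lie within the deleted part of the gene cannot be told from gene counts, and the genotype is given below as labelled. In bulk tissue, fewer cells of a type and less RNA per cell cannot be told apart.

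Upstream sequence is shown for the 5 genes on which most results below turn. Cplx3, Sv2c, Syt10 and Cplx1 differed between the regions in all 4 comparisons, and Unc13c was called after the lesion most often. Each line is the 250 bases before the transcript start, 5′ to 3′ on the strand of the gene (minus in all 5), from RefSeq on GRCm38.p6. Capitals mark a GC box (GGGCGG, searched on both strands and so also seen as CCGCCC) and an E-box (CAGCTG, which reads the same on both strands). E-box means only this form here and below, and other forms of CANNTG were neither searched nor marked.
Cplx3: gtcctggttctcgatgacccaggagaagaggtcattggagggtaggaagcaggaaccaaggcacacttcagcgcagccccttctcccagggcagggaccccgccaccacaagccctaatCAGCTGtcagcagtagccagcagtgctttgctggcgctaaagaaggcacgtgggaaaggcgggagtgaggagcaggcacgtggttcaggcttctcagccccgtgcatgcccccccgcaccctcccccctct
Sv2c: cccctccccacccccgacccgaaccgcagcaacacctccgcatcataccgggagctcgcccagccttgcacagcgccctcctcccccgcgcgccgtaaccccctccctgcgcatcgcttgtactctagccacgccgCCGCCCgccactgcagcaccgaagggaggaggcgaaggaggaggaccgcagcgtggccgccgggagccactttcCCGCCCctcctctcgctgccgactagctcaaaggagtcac
Syt10: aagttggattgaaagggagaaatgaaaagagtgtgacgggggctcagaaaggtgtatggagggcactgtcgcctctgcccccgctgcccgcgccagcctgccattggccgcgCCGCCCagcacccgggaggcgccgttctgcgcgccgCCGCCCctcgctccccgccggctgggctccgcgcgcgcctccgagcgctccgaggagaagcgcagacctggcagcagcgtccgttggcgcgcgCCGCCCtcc
Cplx1: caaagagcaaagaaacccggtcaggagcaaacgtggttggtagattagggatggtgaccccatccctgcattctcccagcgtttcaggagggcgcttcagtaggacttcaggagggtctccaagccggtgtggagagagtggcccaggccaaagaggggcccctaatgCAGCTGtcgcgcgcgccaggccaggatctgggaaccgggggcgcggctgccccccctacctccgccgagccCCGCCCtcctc
Unc13c: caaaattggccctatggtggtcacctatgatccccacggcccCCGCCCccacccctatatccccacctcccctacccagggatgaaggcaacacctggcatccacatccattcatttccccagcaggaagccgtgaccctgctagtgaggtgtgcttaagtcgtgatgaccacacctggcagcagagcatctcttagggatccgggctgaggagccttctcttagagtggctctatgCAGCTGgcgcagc

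The windows lie at chr9:57606282-57606531 for Cplx3, chr13:96132578-96132827 for Sv2c, chr15:89841861-89842110 for Syt10, chr5:108550028-108550277 for Cplx1 and chr9:73969038-73969287 for Unc13c. No motif searched was in all 3 genes that were higher in DG: Syt10 held 3 GC boxes, Sv2c 2 and Cplx3 0, and of the 3 only Cplx3 held an E-box. Cplx1 and Unc13c each held 1 GC box and 1 E-box. The GC content was 72.0% for Syt10, 70.8% for Sv2c, 64.8% for Cplx1, 62.8% for Cplx3 and 58.8% for Unc13c. Of 32851 start sites in the table, 32.7% held the GC box, 13% the E-box and 12.4% a TATA box (TATAAA, both strands) in this window. The table matched 30 of the 41 genes, with 41 start sites. Of these 30 genes, 23 held the GC box at any of their start sites, 9 the E-box and 1 the TATA box. These are counts of genes and the percentages are of single start sites, so they were not compared. A match describes these letters only.

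Levels per kb of exon were led by Syt1 and Syt11 in both regions. In Synpo+/+ CA3 control, Syt1, the main fast calcium sensor of release, was highest at 179 CPM per kb, before Syt11 at 107, Cplx2 at 88.8, Syn2 at 77.8 and Cplx1 at 76.8 CPM per kb. In Synpo+/+ DG control, Syt1 was at 119, Syt11 at 83.2 and Syt4 at 70.5 CPM per kb. Cplx3, a complexin best known from retinal ribbon synapses, ranked 40 of 41 in CA3 (0.262 CPM per kb), 28 in DG (2.73 CPM per kb) and 11 in Synpo+/+ control inputs of whole cultures (26.8 CPM per kb). The inputs hold cortex and all hippocampal fields, and they were prepared and sequenced separately from the regional libraries, so that levels across the experiments are set side by side without a test.

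The question of the first comparison was which of these genes separate DG from CA3. Cplx3, Sv2c and Syt10 were higher in DG, and Cplx1 was lower, in each of 4 comparisons (control and ECL, both genotypes), which share no library. Sv2b, a vesicle glycoprotein, was lower in DG in 3 of the 4 by 4.63-fold to 4.88-fold. In Synpo+/+ control cultures, 16 of 41 genes passed the threshold of an adjusted p below 0.05 (edgeR quasi-likelihood test; such genes are named called below), 7 higher and 9 lower in DG, where 5.39% of all genes tested were called (2.63% higher and 2.75% lower). The number called was 6 and 9 without CA3 control replicate 1 and 2, and 8 without DG control replicate 3. In Synpo-/- control cultures, 28 of 40 were called, 11 higher and 17 lower, against 25.5% of all genes (13.1% higher and 12.5% lower). After ECL, 6 of 40 were called in Synpo+/+ cultures (5 higher, 1 lower) against 2.05% (1.54% higher and 0.508% lower), and 18 of 41 in Synpo-/- cultures (5 higher, 13 lower) against 13.6% (7.37% and 6.24%). The median log2 fold change over the genes tested was 0.00, -0.18, 0.01 and -0.10 in Synpo+/+ control, Synpo+/+ ECL, Synpo-/- control and Synpo-/- ECL, beside 0.02, 0.06, 0.05 and 0.03 over all genes.

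**Figure D1:**
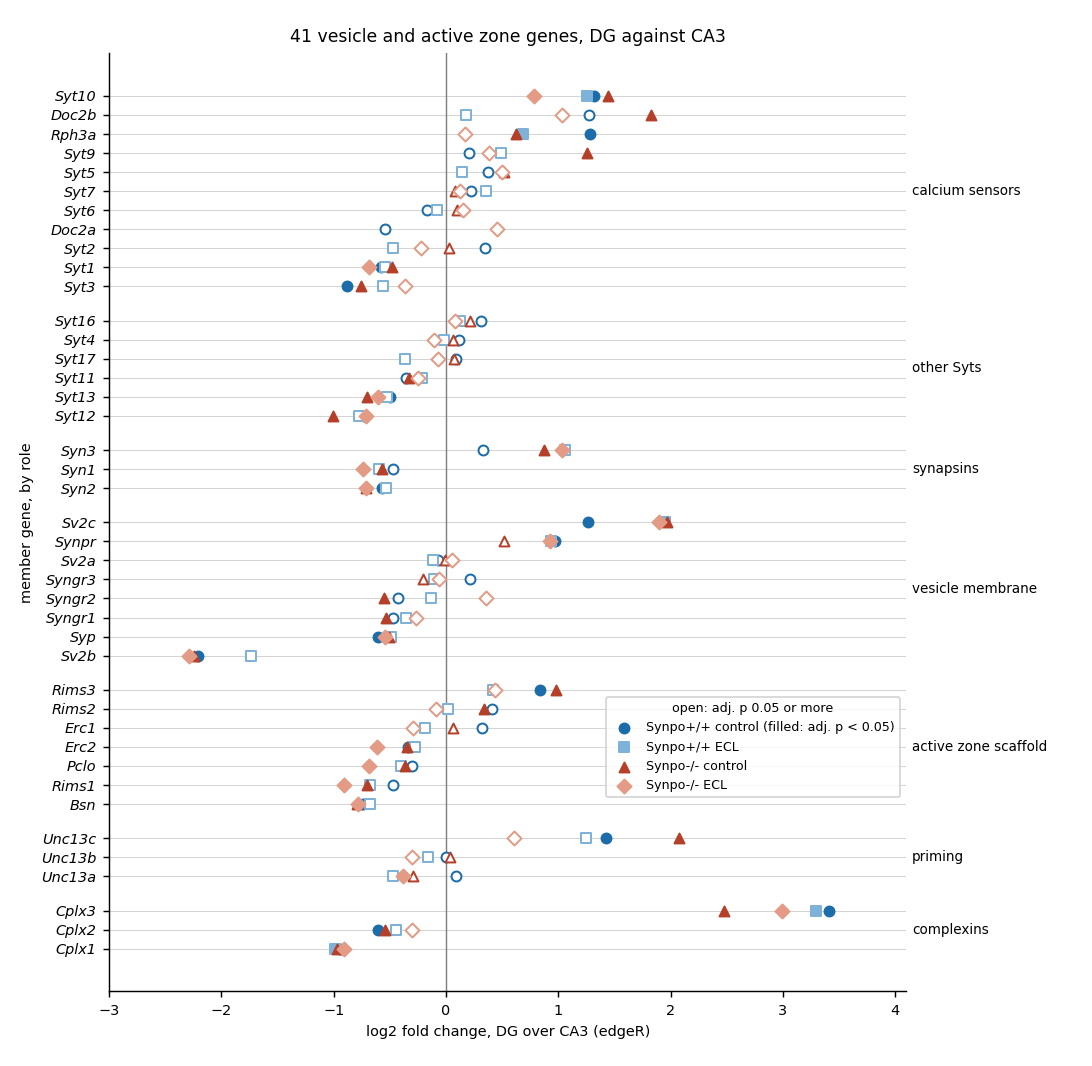
Log2 fold change of DG over CA3 (horizontal axis) for the 41 genes, grouped by role, in the 4 regional comparisons (color and marker shape). Filled points were called (adjusted p under 0.05) and open points were not. Cplx3, Sv2c and Syt10 were higher and Cplx1 was lower in all 4 comparisons, and Sv2b reached -2.29.

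Across the 4 comparisons, 30 genes were called at least once, 12 higher and 18 lower in DG, none in both directions, and 11 were never called. The share of all genes called at least once, or in both directions, was not computed. In Synpo-/- control alone it was 25.5% that were called. Of the 20928 genes tested in all 4, 296 (1.41%) were called in the same direction each time, 227 higher and 69 lower.

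Cplx3 was at 1.25 and 0.299 CPM in the Synpo+/+ CA3 control libraries and at 14.3, 9.32, 4.63 and 3.94 CPM in the DG control libraries. The groups did not overlap, and the log2 fold change was 3.41 ± 0.62 (SE; adjusted p = 0.00425), 10.6-fold. It was 4.75 without CA3 control replicate 1 and 2.69 without CA3 control replicate 2, and no call was lost. The lowest, median and highest values in Synpo-/- control cultures were 0.931, 1.47 and 3.43 CPM in CA3 and 6.52, 8.55 and 11.8 CPM in DG (log2 fold change 2.48, adjusted p = 5.18e-07). After ECL, Cplx3 was at 0.211, 1.15 and 0.321 CPM in Synpo+/+ CA3 and at 1.59 to 7.81 CPM in DG (median 5.82), with the lowest value in DG replicate 5, and at 0.545 to 1.92 CPM in Synpo-/- CA3 against 9.37, 5.27, 8.47 and 6.26 CPM in DG. No CA3 library reached any DG library of the same genotype and lesion state, although a CA3 library held only 4 to 81 reads of the gene.

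Sv2c, the least widespread of the SV2 proteins in the brain, was at 5.33 and 5.21 CPM in Synpo+/+ CA3 control and at 14.4, 13.5, 11.8 and 10.3 CPM in DG control (log2 fold change 1.26 ± 0.21, adjusted p = 0.00217). It was at 3.92, 4.71 and 4.96 CPM (lowest, median, highest) in Synpo-/- CA3 control and at 14.6, 16.3 and 20.3 CPM in DG (1.97, adjusted p = 3.69e-10). In Synpo-/- ECL it was at 4.63, 4.92 and 5.68 CPM in CA3 and at 23.0, 18.7, 15.1 and 18.6 CPM in DG (1.90, adjusted p = 5.7e-07). Regions overlapped only in Synpo+/+ ECL, where DG replicate 5 was at 3.16 CPM among DG values of up to 20.3 CPM and CA3 was at 3.06, 3.69 and 3.79 CPM.

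Syt10, a calcium-binding synaptotagmin known from regulated secretion of IGF-1 in olfactory neurons, was at 4.67 and 4.97 CPM in Synpo+/+ CA3 control and at 14.2, 8.78, 15.1 and 9.59 CPM in DG control. The log2 fold change was 1.32 ± 0.26 (adjusted p = 0.00661), and leaving out each of the 6 libraries in turn lost the call once, without CA3 control replicate 2 (adjusted p = 0.0527). It was 1.44 in Synpo-/- control, 1.25 in Synpo+/+ ECL (adjusted p = 0.0386) and 0.79 in Synpo-/- ECL (adjusted p = 0.0108), and the regions did not overlap in any of the 4. Cplx1, the complexin of fast release at many synapses, was at 177 and 159 CPM in Synpo+/+ CA3 control against 104, 95.05, 69.1 and 78.8 CPM in DG control (log2 fold change -0.94 ± 0.16, adjusted p = 0.00269). In Synpo-/- control it was at 138, 174 and 261 CPM in CA3 and at 66.8, 92.6 and 119 CPM in DG. The 2 regions did not overlap in either genotype, before or after the lesion.

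Sv2b was at 266 and 290 CPM in Synpo+/+ CA3 control and at 67.2, 51.3, 51.0 and 67.9 CPM in DG control. Its log2 fold change of -2.21 ± 0.15 (adjusted p = 2.19e-06) was the smallest p among the 41 genes in this comparison. In Synpo-/- cultures the change was -2.25 in control (adjusted p = 1.21e-08) and -2.29 after ECL (adjusted p = 4.26e-07), with DG below CA3 in every library. In Synpo+/+ ECL cultures it was -1.74 (adjusted p = 0.056). There DG replicate 5 was at 283 CPM, the next DG library at 63.8 CPM and CA3 at 272, 311 and 312 CPM.

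Leaving out Synpo+/+ DG ECL replicate 5 raised the number called in Synpo+/+ ECL from 6 to 25 (7 higher, 18 lower), all 6 among them, against 19.8% of all genes in that fit. The 6 were then Cplx3 (3.43), Sv2c (2.10), Syt10 (1.34), Synpr (0.98) and Rph3a (0.68) higher and Cplx1 (-1.26) lower. Sv2b was then called at -2.41, and 10 genes were called the same way in all 4 comparisons. Syt10, Sv2c and Cplx3 were higher in DG, and Syt1, Syt13, Syn2, Sv2b, Syp, Cplx1 and Bsn lower. The share of all genes called in all 4 was not computed without replicate 5. The Synpo+/+ control calls of Syt1, Syt13 and Syn2 were not kept in every fit that left out a library. Their log2 fold changes there were -0.67 to -0.51, -0.54 to -0.44 and -0.79 to -0.32. Leaving out any other library of the Synpo+/+ ECL comparison left 0 called. The choice to leave out replicate 5 was made after the values were seen.

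**Figure D2:**
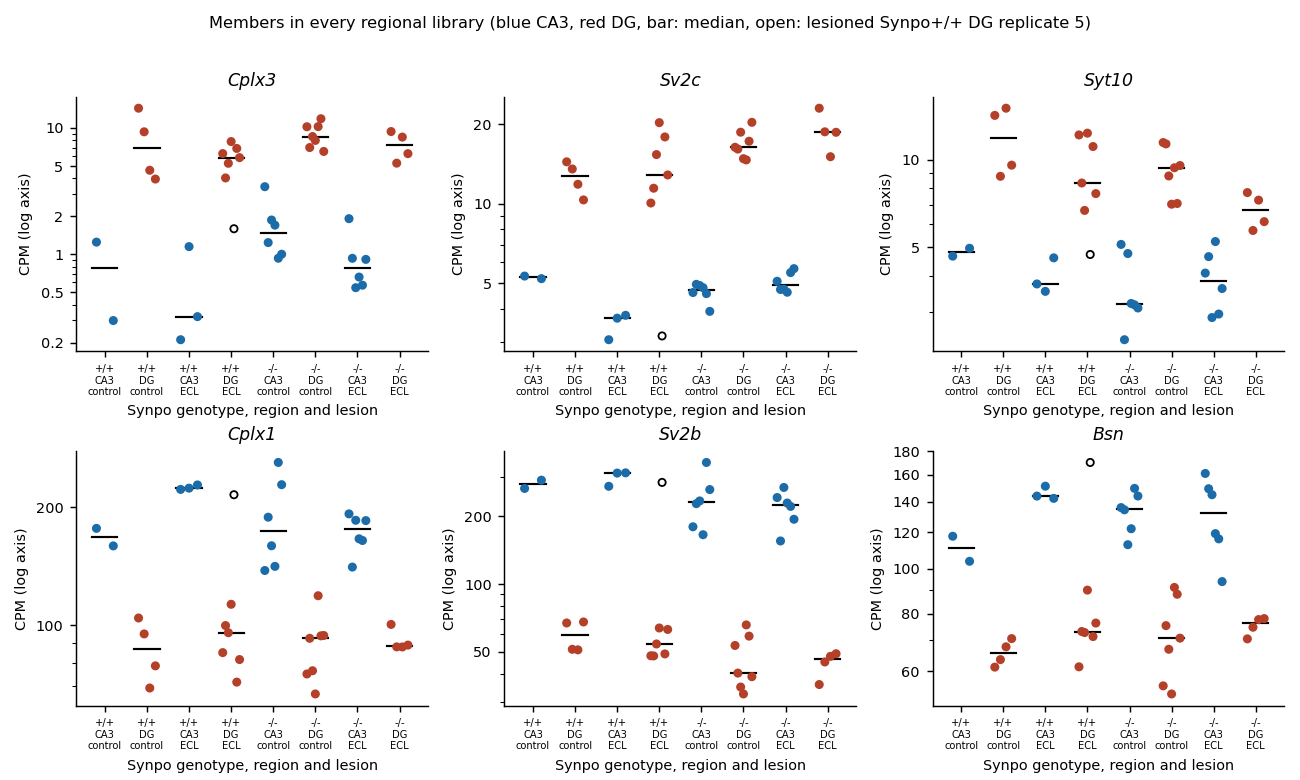
CPM (log axis) of genes that differed between CA3 and DG, each point a library (CA3 blue, DG red, Synpo+/+ DG ECL replicate 5 open) and each bar a group median, by region, genotype and lesion state. Sv2b in DG was at 32.5 to 67.9 CPM outside Synpo+/+ DG ECL replicate 5 (283 CPM), below all CA3 libraries (155 CPM or more), and Cplx3 was higher in every DG library than in any CA3 library of its own group pair.

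By role, calcium sensors and relatives went both ways. In Synpo+/+ control cultures, 2 of 11 were higher in DG (Rph3a at 1.28 ± 0.15, adjusted p = 0.000196, and Syt10) and 2 lower (Syt1 and Syt3), and in Synpo-/- control cultures 5 of 10 were higher and 2 lower. Rph3a, which binds Rab3 on vesicles, was at 29.6 and 33.1 CPM in Synpo+/+ CA3 control and at 69.7, 88.5, 70.2 and 72.8 CPM in DG. Of the Doc2 genes, Doc2b was called only in Synpo-/- control cultures, at 1.83, where CA3 was at 0.895 to 1.78 CPM and DG at 3.47 to 5.87 CPM. Of the 6 synaptotagmins with no assigned role in calcium-triggered release, 1 was lower in Synpo+/+ control (Syt13 at -0.50), 3 in Synpo-/- control (Syt12 at -1.01, Syt13 at -0.71 and Syt11 at -0.33), and none was higher. The Synpo+/+ calls of Syt1 (-0.67 to -0.51), Syt3 (-1.09 to -0.645) and Syt13 (-0.54 to -0.44) were not kept in every fit that left out a library.

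Among scaffold genes, Bsn was lower in DG (Synpo+/+ control -0.74 ± 0.13, adjusted p = 0.00368), at 61.2, 63.6, 67.8 and 70.6 CPM against 118 and 104 CPM in CA3. Rims3, which encodes a short RIM isoform, was higher in DG in both control comparisons, by 0.83 and 0.98 on the log2 scale. The Synpo+/+ call of Rims3 was lost in 5 of 6 fits that left out a library (0.68 to 0.93), all but that without DG control replicate 4. Rims1, Pclo and Erc2 were also lower in Synpo-/- control cultures (-0.70, -0.37 and -0.35), and Rims2 was higher (0.34). Synapsins fell into opposite groups there: Syn1 and Syn2 were lower in DG (-0.57 and -0.71), and Syn3 was higher (0.87). Complexins had 1 of 3 higher (Cplx3) and 2 lower (Cplx1 and Cplx2) in both control comparisons. The Synpo+/+ call of Cplx2 was not kept in every fit that left out a library (-0.645 to -0.565).

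Families differed between the regions in the mix of their members. Per kb of exon, Sv2b made up 61.5 ± 3.47% of SV2 counts in Synpo+/+ CA3 control and 25.9 ± 4.57% in DG control, Sv2a 37.6 ± 3.45% and 69.4 ± 4.34%, and Sv2c 1.01 ± 0.0194% and 4.69 ± 0.366%. Sv2b made up 55.5 ± 5.15% in Synpo-/- CA3 control and 20.04 ± 4.04% in DG. Synpr, the synaptophysin relative also called synaptoporin and known from mossy fiber boutons, made up 42.3 ± 0.962% of the Syp and Synpr sum in Synpo+/+ CA3 control and 67.3 ± 8.31% in DG control. Synpr was at 204 and 189 CPM in CA3 and at 334, 247, 530 and 412 CPM in DG (log2 fold change 0.97 ± 0.24, adjusted p = 0.0269), and Syp was lower in DG (-0.60). The Synpr call was lost in 4 of 6 fits (0.77 to 1.12), without either CA3 control library and without DG control replicate 3 or 4. Unc13c made up 17.4 ± 2.95% of Munc13 counts in Synpo+/+ CA3 control and 33.5 ± 11.04% in DG control. In Synpo-/- control it made up 18.0 ± 2.10% in CA3 and 49.6 ± 10.3% in DG.

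Genes that work beside them were mostly not higher in DG. In Synpo+/+ control cultures, 0 of 12 SNARE and fusion genes were higher and 3 lower (median log2 fold change -0.34), 0 of 11 vesicle recycling genes were higher and 3 lower, and 0 of 13 other active zone partners and 0 of 6 Rab3 genes were called. Of 6 vesicle transmitter transporters tested, Slc17a6 (4.05) and Slc30a3 (1.03), the zinc transporter of mossy fiber vesicles, were higher, and Slc17a8 (-1.71) and Slc6a17 (-0.73) lower. In Synpo-/- control cultures, 9 of 12 SNARE genes and 6 of 11 recycling genes were lower and 0 higher. Cell type markers differed too: 7 or 8 of 8 granule cell markers were higher in both control comparisons, neurons in general had 3 of 8 lower and 0 higher in each (medians -0.43 and -0.30), and oligodendrocyte markers were lower (4 of 7 and 7 of 7). Interneuron markers were higher in DG (3 of 8 and 6 of 8) and summed to 883 to 926 CPM in Synpo+/+ CA3 control against 1084 to 1794 CPM in DG, and to 803 to 1171 CPM in Synpo-/- CA3 control against 1249 to 1708 CPM. The part of these differences in the calls above was not tested.

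The next comparison asked what the lesion changed. Unc13c, the Munc13 gene also known from cerebellar granule cells, was lower after ECL in 4 of 5 comparisons that share no library, and few other members were called. In Synpo+/+ DG 3 of 40 were called (2 higher, 1 lower) against 12.2% of all genes (7.86% higher and 4.31% lower), and in Synpo-/- DG 5 of 41 (1 higher, 4 lower) against 8.53% (5.17% and 3.36%). In Synpo+/+ CA3 3 of 40 were called (all higher) against 1.78% (1.50% higher and 0.273% lower), and in Synpo-/- CA3 1 of 40 (lower) against 0.0770% (0.0530% and 0.0241%). In Synpo+/+ inputs of whole cultures 6 of 41 were called (all lower) against 5.61% (2.45% higher and 3.16% lower). The median log2 fold change was 0.10, -0.07, 0.15, -0.06 and -0.18 in that order, beside -0.00, 0.01, -0.01, 0.00 and -0.00 over all genes. Over the 5 comparisons, 14 of the genes were called at least once. The share of all genes called at least once was not computed.

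Unc13c was at 27.6, 8.30, 13.8 and 11.3 CPM in Synpo+/+ DG control and at 2.68, 7.02 and 10.0 CPM (lowest, median, highest) after ECL. The groups overlapped, and the log2 fold change was -1.22 ± 0.33 (adjusted p = 0.0274). In Synpo-/- DG, values were 11.9, 28.6 and 42.1 CPM in control and 4.80, 4.18, 5.70 and 6.20 CPM after ECL, without overlap (-2.48 ± 0.26, adjusted p = 3.54e-05), 5.57-fold lower.

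In CA3 the control levels of Unc13c were lower than in DG in both genotypes (DG over CA3, log2 1.43 and 2.07, both called). The Synpo+/+ call was lost in 4 of 6 fits (0.98 to 1.62), all but those without DG control replicate 2 or 4, and the Synpo-/- call in none of 13. Synpo-/- CA3 control had 5.74, 7.17 and 8.97 CPM (lowest, median, highest) and ECL 2.72, 3.10 and 5.40 CPM, without overlap (-1.05 ± 0.19, adjusted p = 0.0445). Synpo+/+ CA3 had 6.38 and 5.15 CPM in control and 2.59, 2.86 and 3.43 CPM after ECL, also without overlap, and the change of Unc13c there (-1.06 ± 0.25, adjusted p = 0.0593) did not pass. In Synpo+/+ inputs, Unc13c was at 6.88, 7.18, 4.50, 6.12 and 6.79 CPM in control and at 4.74, 2.06, 2.03, 1.58 and 2.93 CPM after ECL (-1.23 ± 0.26, adjusted p = 0.0152), where a single lesioned value lay within the control range.

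**Figure D3:**
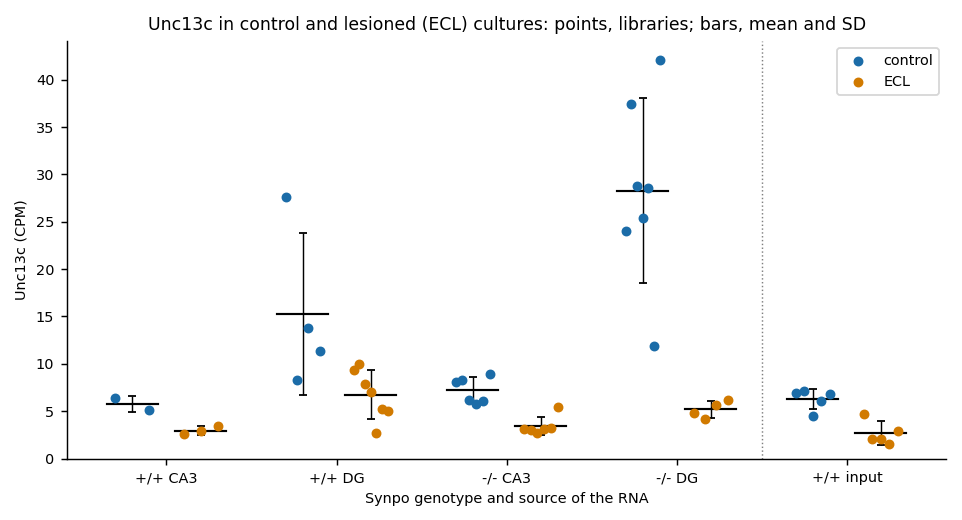
Unc13c in CPM in control and lesioned libraries of the 5 lesion comparisons, each point a library. In Synpo-/- DG all lesioned libraries (4.18 to 6.20 CPM) lay below all controls (11.9 to 42.1 CPM), and in Synpo+/+ DG and the inputs the groups overlapped.

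Of 17022 genes tested in all 5 lesion comparisons, Unc13c was the only 1 (0.00587%) called lower in at least 4, and 12 genes were called higher in at least 4. Leaving out each library in turn, the Unc13c change was -2.61 to -2.36 in Synpo-/- DG with no call lost, -1.54 to -1.09 in inputs with 1 of 10 calls lost (without control replicate 2), and -1.43 to -0.76 in Synpo+/+ DG with 3 of 11 lost (without control replicate 1, control replicate 3 or ECL replicate 4). In Synpo-/- CA3 it was -1.26 to -0.98, and 11 of 12 calls were lost, all but that without ECL replicate 6. Without Synpo+/+ DG ECL replicate 5 it was -1.09 (adjusted p = 0.0127) in Synpo+/+ DG. The decrease in DG differed between the genotypes by -1.28 ± 0.45 on the log2 scale, which did not pass (unadjusted p = 0.00876, adjusted p = 0.478), and by -1.42 without Synpo+/+ DG ECL replicate 5 (unadjusted p = 0.00153, adjusted p = 0.595). The Unc13c share of Munc13 counts per kb went from 49.6 ± 10.3% to 16.6 ± 3.16% in Synpo-/- DG and from 33.5 ± 11.04% to 20.4 ± 7.85% in Synpo+/+ DG.

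The other lesion calls were spread over roles. In Synpo+/+ DG, Syngr2, a synaptogyrin also made outside neurons, was at 3.41, 2.71, 3.68 and 4.56 CPM in control and at 5.32, 6.00 and 11.8 CPM (lowest, median, highest) after ECL, without overlap (1.03 ± 0.24, adjusted p = 0.0145). Syngr1 was also higher there (0.52, adjusted p = 0.041), and Syngr2 was higher in Synpo-/- DG (0.61, adjusted p = 0.0462). Leaving out each of 11 libraries lost the Syngr1 call 7 times (0.38 to 0.60; kept without control replicate 1 or ECL replicate 5, 6 or 7), the Syngr2 call in Synpo-/- DG 8 times (0.54 to 0.74; kept without control replicate 2 or 5 or ECL replicate 2), and that in Synpo+/+ DG 1 time, without control replicate 2 (adjusted p = 0.0583). Without ECL replicate 5, Syngr1 was at 0.38 and Syngr2 at 0.88 in Synpo+/+ DG, both called. Rims3 was lower in Synpo-/- DG, at 17.7, 19.5 and 23.4 CPM in control and 14.5, 12.3, 14.9 and 13.6 CPM after ECL (-0.56, adjusted p = 0.00289), as were Rims2 (-0.44) and Pclo (-0.39). Without ECL replicate 5, Synpo+/+ DG had 4 calls, the added gene being Unc13b (-0.43, adjusted p = 0.0171), and it had 1 without control replicate 2 or 3 or ECL replicate 4. Synpo-/- DG had 3 without control replicate 3 or ECL replicate 1, 3 or 4.

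In Synpo+/+ CA3, Syt17, Unc13a and Erc1 were higher after ECL. Syt17, a synaptotagmin relative without a membrane span, was at 33.7 and 34.7 CPM in control and at 51.2, 61.2 and 65.3 CPM after ECL (0.69 ± 0.14, adjusted p = 0.0409). Unc13a, the main Munc13 of hippocampal synapses, was at 19.6 and 22.3 CPM in control and at 35.6, 34.1 and 34.8 CPM after ECL (0.63, adjusted p = 0.0448), and Erc1 was at 50.4 and 54.3 CPM against 89.2, 82.6 and 83.5 CPM (0.60, adjusted p = 0.0423). The groups did not overlap for any of the 3, but groups of 2 and 3 libraries can separate by order alone. How many of all genes did so was not computed. With 2 controls, 0 of the 3 calls remained without control replicate 1 or without any ECL replicate.

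In whole-culture inputs, the synapsin Syn1 was at 74.4, 96.9, 76.6, 74.8 and 57.2 CPM in control and at 42.1, 45.5, 43.3, 46.7 and 53.5 CPM after ECL, without overlap (-0.72 ± 0.12, adjusted p = 0.00426). Rph3a (-0.52), Syt5 (-0.47), Syt7 (-0.38) and Syt13 (-0.35) were lower as well. Without input control replicate 2 only 1 of the 41 genes was called in this comparison, and without input ECL replicate 2 or 3, 2 were.

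**Figure D4:**
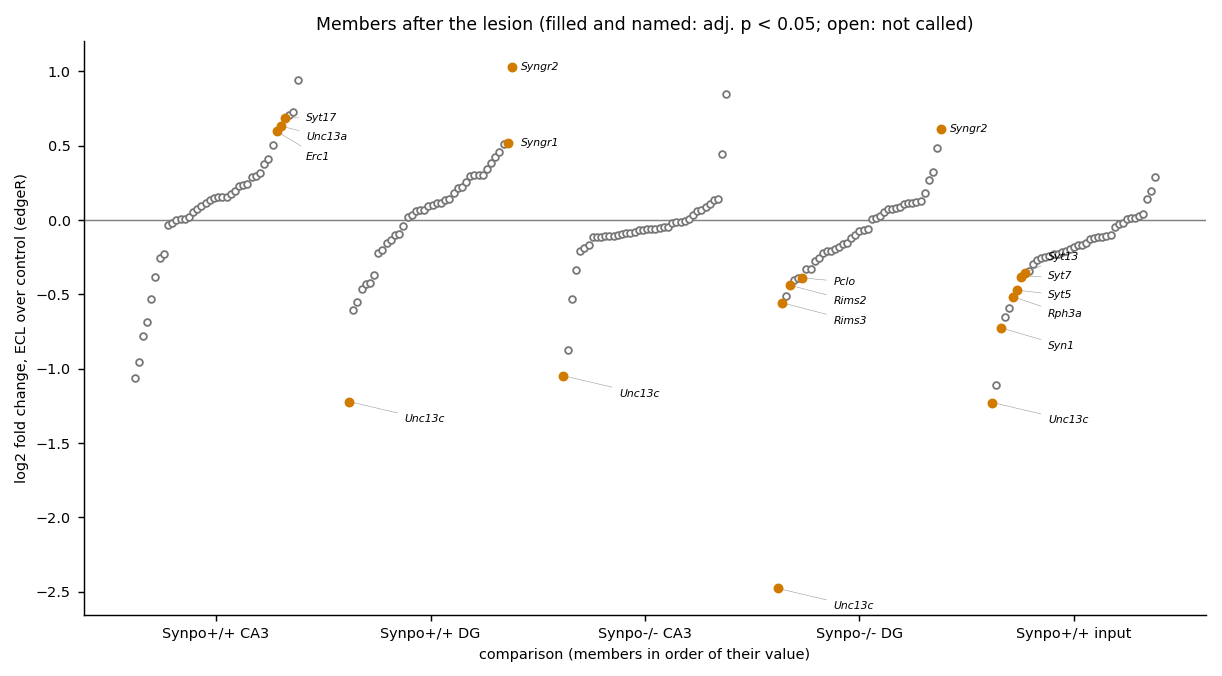
Log2 fold change of ECL over control (log2 scale) of the 41 genes in the 5 lesion comparisons, with called values (adjusted p under 0.05) marked. Unc13c was negative in all 5 and called in 4, between -1.05 and -2.48, and the other calls lay between -0.72 and 1.03.

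Glial markers moved with the lesion. Microglia markers summed to a median of 561 CPM in Synpo+/+ DG control and 1256 CPM after ECL (9 of 9 genes higher, median log2 fold change 1.25), and to 666 and 1489 CPM in Synpo-/- DG (7 of 9 higher, 0.76). Astrocyte markers were higher in DG as well (5 of 7 in Synpo+/+ and 6 of 7 in Synpo-/-). In Synpo+/+ CA3, microglia markers summed to medians of 623 CPM in control and 1076 CPM after ECL (1 of 9 called, higher). In Synpo-/- CA3, where 0.0770% of all genes and Unc13c were called, 0 of 9 microglia markers were, with medians of 985 and 995 CPM. Oligodendrocyte markers there summed to 1740 to 2784 CPM in control and to 1174 to 1611 CPM after ECL, without overlap (2 of 7 lower), and CA1 and subiculum markers to medians of 88.5 and 113.6 CPM (0 of 5 called). In the inputs, 3 of 9 microglia markers were higher and 3 of 8 markers of neurons in general lower (median -0.19). The part of cell composition in the lesion calls was not tested.

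Among partner genes, the Synpo+/+ inputs had 3 of 6 Rab3 genes lower, among them Rab3a at -1.35, and 3 of 11 recycling genes lower, among them Pacsin1 (-0.60) and Sncb (-0.57). In Synpo+/+ CA3, Rab3a was higher (1.31), as were Stx1a (0.96), Slc17a7 (0.73) and Sncb (0.63). In Synpo-/- DG, Slc17a6 (-0.99), Rab27b (-0.71) and Cacnb4 (-0.50) were lower. In Synpo+/+ DG, 0 of 12 SNARE genes, 0 of 11 recycling genes and 0 of 6 Rab3 genes were called.

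Genotype was compared within each region and lesion state, and 0 of the 41 genes were called by edgeR in any of the 4 comparisons. Over all genes, 0.00413% were called in CA3 control, 0.00891% in CA3 ECL and 0.0166% in both DG comparisons. At an unadjusted p under 0.05, 9, 6, 5 and 6 members passed in CA3 control, CA3 ECL, DG control and DG ECL. DESeq2 called 3 in CA3 control, all higher in Synpo-/- (Rph3a 0.93, Syngr3 0.57 and Syt13 0.40), and 0 in the other comparisons. The interaction of genotype with lesion called 0 members in CA3 and in DG by edgeR, with 0% and 0.00381% of all genes called and 10 and 4 members at an unadjusted p under 0.05. DESeq2 called 2 in CA3, Syt17 (-0.80) and Erc1 (-0.47), and 0 in DG. The shares of all genes in this paragraph are from edgeR, and the DESeq2 counts are not set against a DESeq2 share. For Unc13c in DG control, Synpo-/- minus Synpo+/+ was 0.86 ± 0.30 (adjusted p = 0.233).

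The Synpo-coIP asked which transcripts are held with synaptopodin, by comparing captured RNA with its input. Scaffold and priming transcripts were higher in the coIP, and Cplx1, Cplx3, Syngr2 and Syngr3 were lower, in Synpo+/+ cultures with and without lesion. In Synpo+/+ control, 25 of 41 genes were called (19 higher, 6 lower), where 55.0% of all genes were called (29.6% higher and 25.5% lower). After ECL 27 of 40 were called (20 higher, 7 lower) against 58.3% (30.5% and 27.8%), and in libraries labelled Synpo-/- 12 of 41 (8 higher, 4 lower) against 31.4%. The median log2 fold change was 0.26, 0.29 and 0.11, beside 0.04, 0.02 and 0.02 over all genes.

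All 7 scaffold genes and all 3 Munc13 genes were called higher in the coIP in both Synpo+/+ comparisons. In Synpo+/+ control, leaving out each of 10 libraries lost the call of Erc2 7 times (0.19 to 0.31; kept without input replicate 3 or coIP replicate 1 or 2) and that of Rims2 3 times (0.21 to 0.29; without input replicate 3, 4 or 5). With the exon length trend of each library removed, both were below 0 there (Rims2 -0.17 and Erc2 -0.14). Without Synpo-/- input replicate 2, 7 of the 41 genes were called in the Synpo-/- comparison. In the Synpo-/- libraries 2 of 7 scaffold genes (Erc1 and Pclo) and 2 of 3 Munc13 genes (Unc13a and Unc13b) were called higher. That comparison had 2 samples per fraction against 5 in Synpo+/+. Its libraries held 42886994 to 53682143 counts against 11601154 to 29014397, so genotype cannot be told apart from the set of libraries in the coIP. Bsn was at 112, 122, 102, 108 and 114 CPM in the Synpo+/+ control inputs and at 234, 202, 234, 209 and 232 CPM in the coIP (1.01 ± 0.08, adjusted p = 4.28e-07). After ECL it was at 125, 99.2, 101, 102 and 91.7 CPM in the inputs and at 205, 233, 235, 234 and 196 CPM in the coIP (1.11 ± 0.11). In Synpo-/- libraries Bsn was at 122 and 98.1 CPM in the inputs and at 140 and 147 CPM in the coIP (0.35 ± 0.14, adjusted p = 0.0791), which did not pass. The fractions did not overlap in any of the 3 comparisons, but 2 libraries per fraction in Synpo-/- can separate by order alone.

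Erc1, an ELKS scaffold protein also made outside neurons, was at 27.2, 37.5, 37.3, 37.6 and 42.1 CPM in the Synpo+/+ control inputs and at 61.4, 73.8, 79.0, 75.5 and 67.9 CPM in the coIP (1.00 ± 0.12). It was also higher in the Synpo-/- coIP (0.84 ± 0.14, adjusted p = 0.00104). Unc13a (0.99), Syt7 (0.83), Rims3 and Pclo (0.82 each), Syt2 (0.81), Syt3 (0.80) and Unc13b (0.78) followed in Synpo+/+ control. Syp was at 70.8, 67.3, 66.1, 58.6 and 57.4 CPM in the Synpo+/+ control inputs and at 92.9, 90.1, 80.4, 74.4 and 83.9 CPM in the coIP (0.42 ± 0.09), and at 70.7 and 73.6 CPM against 147 and 153 CPM in Synpo-/- libraries (1.02 ± 0.13, adjusted p = 0.000314). The Syp difference was the largest positive one of the 41 genes in libraries labelled Synpo-/-.

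Cplx1 fell furthest in the coIP. It was at 215, 293, 228, 262 and 329 CPM in the Synpo+/+ control inputs and at 126, 114, 119, 143 and 146 CPM in the coIP (-1.01 ± 0.12, adjusted p = 6.8e-06). After ECL it was at 300, 230, 265, 279 and 157 CPM in the inputs and at 110, 121, 92.9, 121 and 75.3 CPM in the coIP (-1.22 ± 0.17), and in Synpo-/- libraries at 267 and 215 CPM against 97.8 and 82.9 CPM (-1.45 ± 0.15, adjusted p = 0.000188). Syngr3 (-0.64), Syt17 (-0.60), Syngr2 (-0.51), Cplx3 (-0.42) and Synpr (-0.37) were lower in Synpo+/+ control. Syngr3, Syt17 and Cplx3 were lower in Synpo-/- libraries too (-0.69, -0.77 and -0.80).

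The interaction of genotype with fraction called 0 of the 41 genes by edgeR, with 0% of all genes called and 2 members at an unadjusted p under 0.05. These were Syp (0.66 ± 0.16, unadjusted p = 0.000774, adjusted p = 0.478), with the larger coIP difference in Synpo-/-, and Bsn (-0.61 ± 0.16, unadjusted p = 0.00116, adjusted p = 0.478), with the smaller one. DESeq2 called both, and with coIP and input paired by lysate edgeR called Syp (adjusted p = 0.0458). For Synpo-/- this pairing used the preparation number of labels that carry crossed numberings. The interaction of lesion with fraction called 0 members by edgeR and by DESeq2 and 1 at an unadjusted p under 0.05, Syngr1 (-0.28).

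Exon length moved with the coIP values of these genes. Among the 7 genes with under 3 kb of exon, 0 were higher and 4 lower in Synpo+/+ control (median log2 fold change -0.51). Of 15 genes of 3 to 6 kb, 5 were higher and 1 lower (0.12), of 8 genes of 6 to 9 kb, 6 were higher (0.66), and of 11 genes over 9 kb, 8 were higher and 1 lower (0.59). Over the 41 genes Pearson's r of the log2 fold change with log2 exon length was 0.68 and Spearman's rho 0.64 in Synpo+/+ control, with r of 0.64 after ECL and 0.57 in Synpo-/- libraries, as a description over genes measured in the same libraries. With the length trend of each library removed, r was 0.14, 0.07 and 0.20, and with both length and GC trends removed 0.41, 0.32 and 0.32.

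**Figure D5:**
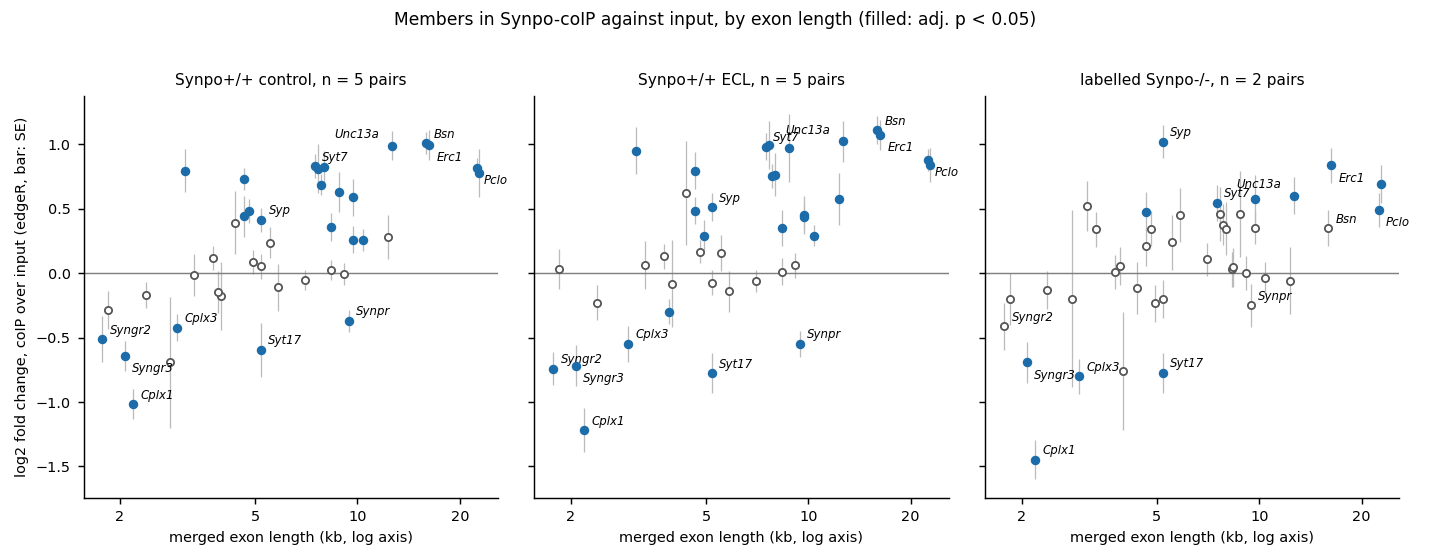
Log2 fold change of coIP over input (log2 scale) against exon length (kb, log axis) for the 41 genes in the 3 coIP comparisons, each point a gene. Points below 3 kb lie below 0 in Synpo+/+ control, and those above 6 kb mostly lie above it.

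Without trend removal, 55.0% of all genes were called in Synpo+/+ control, 58.3% after ECL and 31.4% in Synpo-/- libraries. With both length and GC trends removed, 18 of the genes described here were called in Synpo+/+ control (9 higher, 9 lower). After ECL 17 were called (10 higher, 7 lower), and in Synpo-/- libraries 8 (3 higher, 5 lower). These counts are not set against the share of all genes called with the trends removed. Erc1 (0.54), Syt3 (0.51), Sv2a (0.49), Unc13c (0.40), Rims1 (0.39), Rims3 (0.36), Unc13a (0.27), Syp (0.27) and Pclo (0.22) remained higher in Synpo+/+ control, while Bsn was at -0.063 and was not called. Cplx1 (-0.94), Syt17 (-0.85), Synpr (-0.59), Syngr3 (-0.57), Syngr2 (-0.42) and Cplx3 (-0.33) remained lower.

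Cell type markers differed between the fractions as well. CA1 and subiculum markers summed to 122 to 177 CPM in the Synpo+/+ control inputs and to 202 to 286 CPM in the coIP, without overlap (4 of 5 genes higher). Microglia markers summed to medians of 1335 and 978 CPM (3 of 9 lower), and of the interneuron markers 4 of 8 were lower and 1 higher. Their part in the coIP calls was not tested.

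Partner genes differed by group in the coIP of Synpo+/+ control. Of 12 SNARE and fusion genes 2 were higher and 6 lower, among them Snap25 (-1.08), Napa (-0.86) and Vamp2 (-0.68), with Stxbp5 higher (0.50). Of 13 other active zone partners 8 were higher, among them the calcium channel subunits Cacna1a (1.44) and Cacna1b (1.04) and Rimbp2 (0.78), and 3 lower, among them Lin7a (-1.46). Of 11 recycling genes 6 were higher and 3 lower, among them Sncb (-1.30). In Synpo-/- libraries 0 of 12 SNARE genes were higher and 6 lower, and 4 of 13 active zone partners were higher and 2 lower.

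Counts are unstranded, and 17 of the 41 genes share exon bases with another annotated gene, 6 of them over more than 10% of their exons. These are Doc2a (39.4%, with Ino80e), Syt12 (17.2%), Syp (16.8%), Syt4 (14.5%), Syn3 (14.1%, with Timp3) and Erc1 (11.8%), whose values are uncertain to that extent.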

How the data were processed

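Counts per gene symbol from 63 libraries were used. The authors ran cutadapt 3.5 on the reads and STAR 2.7.8a against mm10, kept libraries with over 60% uniquely mapped reads and counted reads over GENCODE M25 exons with featureCounts 2.0.1 without regard to strand, so the deposited values are raw counts (versions from the submitters' processing notes). Of the 55291 symbols, 107 stand for more than 1 gene, none of them described here.

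Groups came from the labels. Each comparison was fitted over all genes with edgeR 4.0.16 in R 4.3.3, as a quasi-likelihood test after TMM normalization and filterByExpr. The Benjamini-Hochberg adjustment covered every gene in the fit. A gene below 0.05 after adjustment is named called, and all called genes among the 41 were eligible to be named, with up to 4 genes of each partner list. CPM is the count scaled to the TMM-normalized library size, a log2 fold change is given ± SE, and groups as mean ± SD. Levels per kb were divided by exon length, taken from the deposited GENCODE annotation on GRCm38. Libraries carry no molecular identifiers, so counting error alone understates the spread. The share of all genes whose groups did not overlap was not computed for any comparison.

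Alternatives were DESeq2 1.42.0, RLE size factors, no low-count filter, a mean normalized count over 300, removal of length or of length and GC trends (lowess, span 0.3, genes with a mean count over 50), the replicate number as a block, and leaving out each library. CoIP and input of a replicate share a lysate. Deviations from the group means correlated in all 5 Synpo+/+ control pairs (r from 0.189 to 0.442) and all 5 ECL pairs (0.105 to 0.381). The correlation was 0.046 in the 2 Synpo-/- pairs, a single value because each fraction holds 2 libraries. Their labels carry crossed numberings, and the preparation number was used. Synpo+/+ control coIP replicates 2 and 3 and ECL coIP replicate 2 correlated more strongly with an input of another number (1, 5 and 1). The genes and lists were chosen with earlier results of these data known. The fits were tested on simulated data.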

Additional observations from a re-analysis of the deposited data

Results flagged for a closer look

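Of 180 sets of 4 to 10 samples examined for a single sample far from the others, 16 stood out, and chance gives about 1 in 20. Synpo+/+ DG ECL replicate 5 accounted for 6 of them. It was highest in its group for Bsn (170 CPM, nearest 90.0), Cplx1 (215 CPM, nearest 113), Sv2b (283 CPM, nearest 63.8), Syt12 (5.47 CPM, nearest 2.89) and the summed CA3 pyramidal cell markers (653 CPM, nearest 247), and lowest for the summed granule cell markers (85.4 CPM, nearest 443).

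The other samples were spread over groups. Cplx1 was highest in Synpo-/- DG ECL replicate 1 (100.5 CPM, nearest 89.0). Cplx3 was highest in Synpo-/- CA3 ECL replicate 1 (1.92 CPM, nearest 0.930), and Unc13c in Synpo-/- CA3 ECL replicate 6 (5.40 CPM, nearest 3.26). Rph3a was highest in Synpo+/+ DG control replicate 2 (88.5 CPM, nearest 72.8), and Sv2c was lowest in Synpo-/- CA3 control replicate 6 (3.92 CPM, nearest 4.57). In the coIP after ECL, Syp was highest in Synpo+/+ replicate 5 (98.8 CPM, nearest 73.1) and Unc13c lowest in replicate 2 (3.91 CPM, nearest 5.31). Syt9 was lowest in the Synpo+/+ control coIP replicate 3 (0.782 CPM, nearest 1.96). The granule cell markers summed highest in Synpo-/- CA3 control replicate 1 (187 CPM, nearest 103) and lowest in the Synpo+/+ ECL input replicate 1 (102 CPM, nearest 129).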

How the results depend on the processing

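Counts of called genes stayed within 1.5 times in 120 of 145 recomputations other than leaving out a library, and in 185 of 224 that left one out. The counts in this section cover the genes described here and are not set against the share of all genes called in the same setting. With DESeq2, the counts became 11 in region Synpo+/+ ECL (from 6), 5 in lesion Synpo+/+ CA3 (from 3), 11 in the inputs (from 6), 3 in genotype CA3 control, 2 in genotype by lesion in CA3 and 2 in genotype by fraction (each from 0). With RLE size factors, and with length and GC trends removed, lesion Synpo+/+ CA3 had 1, and with both trends removed the Synpo+/+ ECL coIP had 17 (from 27). Without the low-count filter, region Synpo+/+ ECL had 10, lesion Synpo+/+ CA3 8, genotype CA3 control 3 and genotype CA3 ECL 1. With a mean normalized count over 300, region Synpo+/+ control had 10 (from 16), region Synpo+/+ ECL 3, lesion Synpo+/+ DG 1 and lesion Synpo-/- CA3 0. The cause of these changes was not tested, beyond the smaller number of genes that the limit of 300 leaves.

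With the replicate block, region Synpo+/+ control had 8, region Synpo+/+ ECL 26, lesion Synpo+/+ DG 5, lesion Synpo-/- DG 3, genotype CA3 control 5 and genotype CA3 ECL 3. In these comparisons the labels give the samples a number and do not say whether equal numbers share a culture or an animal (correlations of same-numbered samples from -0.224 to 0.540). In the coIP, where the numbers pair the samples, the block gave 27 (from 25), 29 (from 27) and 14 (from 12) calls and lost none, adding Doc2b and Syt10, Doc2b and Syt5, and Rims1 and Syt3. The Synpo-/- pairs rest on the preparation number, because the labels carry a crossed numbering as well. Genotype by fraction had 1 with the block and 1 with the block and both trends removed.

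Leaving out each library in turn gave 6 to 16 calls in region Synpo+/+ control, 0 to 25 in region Synpo+/+ ECL, 27 to 30 and 15 to 26 in the Synpo-/- regions, 0 to 2, 1 to 4, 0 to 1 and 3 to 6 in lesion Synpo+/+ CA3, Synpo+/+ DG, Synpo-/- CA3 and Synpo-/- DG, 1 to 7 in the inputs, 20 to 25 and 23 to 27 in the Synpo+/+ coIP and 7 to 15 in the Synpo-/- coIP (7 without input replicate 2), where a lone sample is assumed to vary like the others. Of single calls, 958 of 1114 held otherwise, 143 were lost and 13 changed sign, all in the coIP and near 0. With the length trend removed these were Rims2 (-0.17) and Erc2 (-0.14) in Synpo+/+ control, Rims2 (-0.16) and Sv2b (-0.012) after ECL and Pclo (-0.014) in Synpo-/-. With both trends removed they were Bsn (-0.063) and Rims2 (-0.037) in Synpo+/+ control and Bsn (-0.064) and Rims2 (-0.020) after ECL, and with the replicate block added Bsn (-0.060) and Rims2 (-0.034), and Bsn (-0.070) and Rims2 (-0.021).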
